A study of Mus musculus with 18 samples.

Results

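Cytosolic ribosomal protein genes encode the protein subunits of the ribosome that translates nuclear messages. They were chosen by name: a gene counted as a member where its name was Rpl or Rps followed by a digit, or Rplp0, Rplp1, Rplp2 or Rpsa, leaving out names that end in -ps, which mark pseudogenes, and the Rps6k kinases. The rule found 80 members, 33 of them Rps genes of the small subunit and 47 Rpl genes of the large subunit. Of these, 76 were among the 40327 genes of the 129 tables, 71 among the 39147 genes of the Cast tables, and 67 were in both. Rpl11, Rpl13a, Rpl27, Rpl29, Rpl41 and Rps27, which GENCODE M21 also lists under the rule, were not analysed here. The name rule also takes in relatives that are not core subunits, such as Rps19bp1, which encodes a protein that binds the ribosomal protein RPS19.

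The samples were CD23+ B cells from the spleens of female F1 mice, with a 129S1 and a Cast (Mus musculus castaneus) genome and the genotype Xist+/-. Xist is the long noncoding RNA that coats the inactive X chromosome. All samples carried this genotype, and the labels state that X inactivation is skewed so that the inactive X is the Cast X throughout. One group of 3 samples was untreated (naive), and the other group of 3 was stimulated in culture with CpG, a DNA ligand of Toll-like receptor 9, at 1 µM for 24 h. Each sample had 1 table of read counts for the 129 allele and 1 for the Cast allele, with 1987266 to 2928236 reads on genes in the 129 tables and 2465073 to 3321753 in the Cast tables. Such reads can be assigned to an allele only where the strains differ in sequence, so levels cannot be compared between genes, only for 1 gene between samples or alleles. Nothing in the labels says that replicates were separate animals, and p-values then measure the spread between these samples, which may be technical. The other 12 samples of the study were not used here.

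Ribosomal proteins are made in near-equal amounts, and their messages are among the most abundant in any cell. Many of these messages begin with a terminal oligopyrimidine (TOP) tract, a C at the cap followed by a run of C and T bases, through which mTOR signalling and the LARP1 protein control their translation. Lymphocytes leaving rest are known to raise ribosome production, since growth needs translation capacity. Ribosomal protein genes have also given rise to many processed pseudogenes, intronless copies made from messages, and such copies bear on how short reads are assigned.

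A TOP-like start was looked for on the sense strand as a C followed by at least 4 more bases that are each C or T, beginning within 5 bases of the RefSeq start site (GRCm38.p6). It was present for 28 of the 61 members with a RefSeq promoter entry, or 45.9%, against 21.2% of all 27025 genes with an entry. The windows below run from 20 bases before the annotated start to 20 bases from it on, with the tract in capitals. They are shown to set both kinds of start beside both kinds of response. Of the genes with a tract, Rps6, Rpl27a, Rpl35 and Rps26 were called higher after CpG on both alleles and Rpl15 in the 129 tables, while Rps24 was called on neither. Rpl5 and Rps12, called higher on both alleles, had no tract beginning within 5 bases of the annotated start. Their windows hold such runs farther from it, so the grouping depends on where the start is annotated. X-linked Rps4x had none in its window and was called on neither allele. The windows with a tract lie at chr4:86857348-86857387 (minus strand, Rps6), chr7:109519175-109519214 (plus, Rpl27a), chr14:18270967-18271006 (minus, Rpl15), chr2:39005112-39005151 (minus, Rpl35), chr10:128626487-128626526 (minus, Rps26) and chr14:24490658-24490697 (plus, Rps24). The others lie at chr5:107900508-107900547 (plus, Rpl5), chr10:23787190-23787229 (minus, Rps12) and chrX:102189372-102189411 (minus, Rps4x).
Rps6: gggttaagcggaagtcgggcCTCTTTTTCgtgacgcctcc
Rpl27a: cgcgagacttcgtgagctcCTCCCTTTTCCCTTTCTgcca
Rpl15: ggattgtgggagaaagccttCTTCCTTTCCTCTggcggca
Rpl35: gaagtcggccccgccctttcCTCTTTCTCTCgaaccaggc
Rps26: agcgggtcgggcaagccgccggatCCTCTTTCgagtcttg
Rps24: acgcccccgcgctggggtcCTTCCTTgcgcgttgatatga
Rpl5: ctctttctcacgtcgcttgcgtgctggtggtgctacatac
Rps12: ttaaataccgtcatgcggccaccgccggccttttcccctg
Rps4x: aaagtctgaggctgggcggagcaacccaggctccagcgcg

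Processed copies of the members were counted by aligning each coding sequence to the processed pseudogenes of GENCODE M21. Of the 80 members, 72 had at least 1 copy with 95% identity or more over 80% or more of the coding length, and 512 such member-copy pairs were found in all. Rpl21 had the most, with 56 copies, followed by Rpl7a with 31, while Rpl8 and Rplp2 had 0. The pairs below show how little separates a member from its closest copy, for Rps15, the autosomal member with the lowest Cast share, and for X-linked Rps4x. Each gives the 60 coding bases with the most mismatches, which are in capitals. Rps15 matched Rps15-ps2 at 97.7% and had 5 mismatches in this stretch, and Rps4x matched Rps4x-ps at 97.8% with 3. Rps6 and Rps6-ps4 were identical over all 747 coding bases.
Rps15: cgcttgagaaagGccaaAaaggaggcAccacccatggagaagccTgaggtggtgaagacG
Rps15-ps2: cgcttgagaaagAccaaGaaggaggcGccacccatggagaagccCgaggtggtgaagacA
Rps4x: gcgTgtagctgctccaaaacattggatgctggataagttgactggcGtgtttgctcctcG
Rps4x-ps: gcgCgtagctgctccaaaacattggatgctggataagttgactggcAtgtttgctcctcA

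Some facts of the libraries bear on what follows. In 9 of the 59 autosomal members with at least 20 allele reads in every sample, the share of reads assigned to Cast differed by more than 20 percentage points between replicate numbers, in the naive and the stimulated sample of a number alike. The labels give all samples as F1, with 1 copy from each strain, and the cause of these differences was not tested. The counts of calls, median changes and shares of reads are given with and without these 9 members. Summed CPM (reads scaled by effective library size) of the 16 macrophage markers ran from 2925 to 7670 in the naive samples and from 21.4 to 35.2 after CpG over both tables, with none of the 16 at 0. All 15 tested markers were lower after CpG in either table, and the summed B cell markers, from 6406 to 11400, fell too (8 of 8 tested lower in the 129 and 7 of 7 in the Cast tables), to between 2259 and 3831. Reads outside annotated genes made up 57.9% to 67.1% of reads in naive and 44.5% to 56.7% in stimulated samples. These values move with the CpG comparison, and their part in it was not tested. In bulk samples, fewer cells of a type and less RNA per cell cannot be told apart.

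The question of the CpG comparison was which members changed in B cells activated through Toll-like receptor 9. Most members that changed rose. In the 129 tables, 36 of the 73 tested members were higher after CpG and 0 were lower at an adjusted p under 0.05, where 28.2% of all tested genes were higher and 27% lower. No member had an unadjusted p under 0.05 in the lower direction in these tables, and DESeq2 also called 0 lower. The Cast tables gave 40 of 66 members higher and 1 lower (Rps27rt), against 30.7% and 31.5% of all genes. Without the 9 members whose share depended on the replicate number, 35 of 64 members were higher in the 129 tables and 35 of 57 in the Cast tables, with median log2 changes of 0.55 and 0.48.

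The median change of the members was 0.52 on the log2 scale in the 129 and 0.48 in the Cast tables, while the medians over all tested genes were -0.01 and -0.04. A rise in these units is a fold of the CPM after trimmed-mean (TMM) scaling. Of the 62 members tested in both tables, 25 were called higher in both, 2 in the 129 tables alone, 13 in the Cast tables alone and 22 in neither. The log2 changes on both alleles had a Pearson r of 0.80 across these 62 members, which share the same 6 samples. Without the 9 members the r was 0.80 over 53, of which 24 were called higher in both tables. Stimulated and naive groups did not overlap, with the stimulated samples higher, for 39 of 73 members in the 129 tables (32.6% of all genes) and for 41 of 66 in the Cast tables (33.7%). They did not overlap in the lower direction for 1 member in each, Rpl36al in the 129 tables (32.2%) and Rps27rt in the Cast tables (34.8%).

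**Figure D1:**
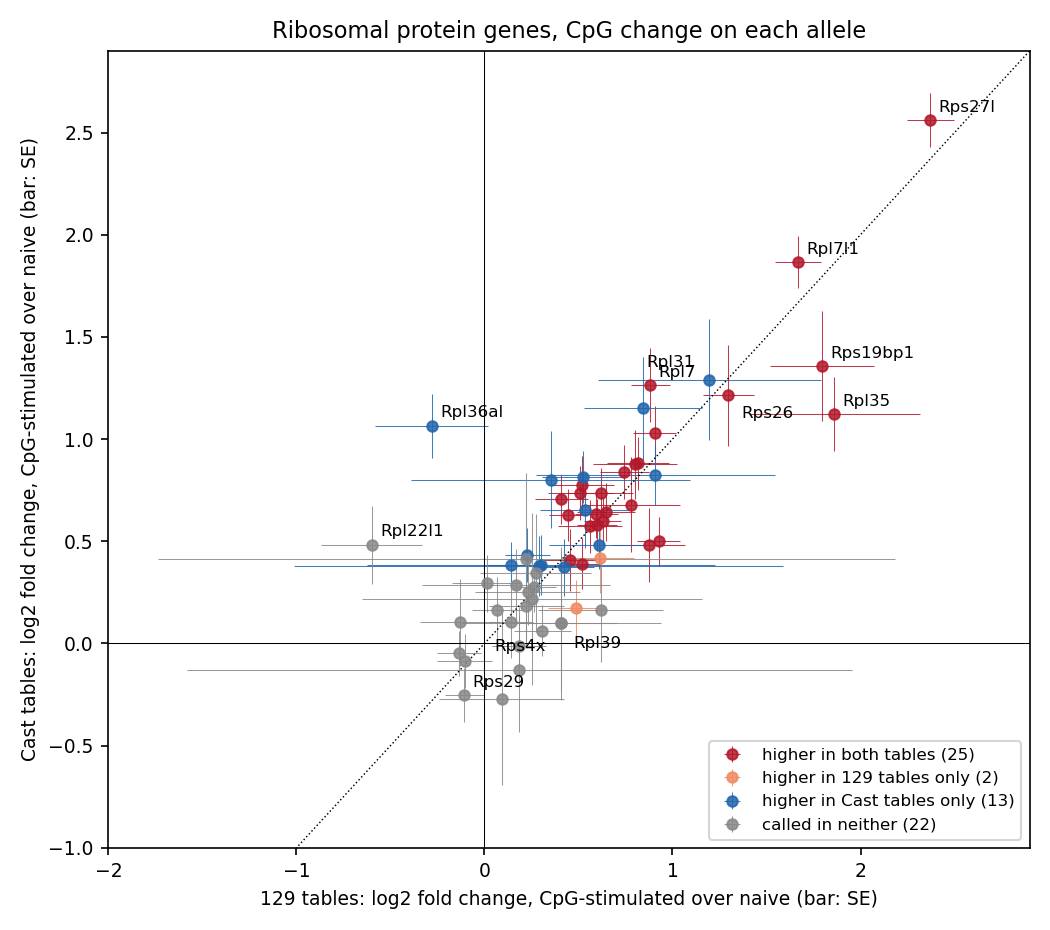
Log2 fold change after CpG of the 62 members tested in both tables, with the 129 tables on the horizontal and the Cast tables on the vertical axis; bars are standard errors, colours give the calls and the dotted line marks equal change. Most points lie to the upper right of 0, Rps27l and Rpl7l1 are farthest out, and Rpl36al and Rpl22l1 lie left of 0 in the 129 tables and above 0 in the Cast tables.

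As a share of all reads on genes, the members took 4.81%, 4.15% and 4.46% in the naive 129 tables and 6.59%, 6.40% and 6.04% after CpG. The Cast tables gave 2.68%, 2.84% and 3.11% in naive samples and 3.87%, 4.31% and 4.29% after CpG. Every stimulated sample lay above every naive one in both tables. Group means were 4.47% ± 0.33 and 6.34% ± 0.28 for the 129 tables and 2.88% ± 0.22 and 4.15% ± 0.25 for the Cast tables (SD, n = 3). The two-sided exact permutation test gave p = 0.1 in each table, the smallest value that 3 against 3 samples allow. Large-subunit members went from 1.91% ± 0.11 to 3.07% ± 0.02 in the 129 tables and small-subunit members from 2.56% ± 0.26 to 3.27% ± 0.30 (SD, n = 3). The Cast tables gave 1.18% ± 0.05 and 1.74% ± 0.04 for the large subunit and 1.70% ± 0.17 and 2.41% ± 0.22 for the small subunit, and the difference between subunits was not tested. Without the 9 members tied to the replicate number, all members together took 3.96% ± 0.28 and 5.72% ± 0.17 in the 129 and 2.31% ± 0.06 and 3.40% ± 0.07 in the Cast tables (SD, n = 3).

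Mitochondrial ribosomal proteins build the separate ribosome inside mitochondria. Their 73 genes in the 129 tables went from 0.27% ± 0.01 to 0.63% ± 0.02 of gene reads (SD, n = 3). Members had 18.2, 15.7 and 15.4 reads per mitochondrial ribosomal protein read in naive 129 tables and 10.7, 10.1 and 9.32 after CpG. On the Cast side the same ratio was 10.1, 10.4 and 11.9 in naive samples and 6.30, 7.29 and 7.17 after CpG. The ratio was lower in all 3 stimulated samples than in the 3 naive ones, with exact permutation p = 0.1 in each table, again the smallest possible value.

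**Figure D2:**
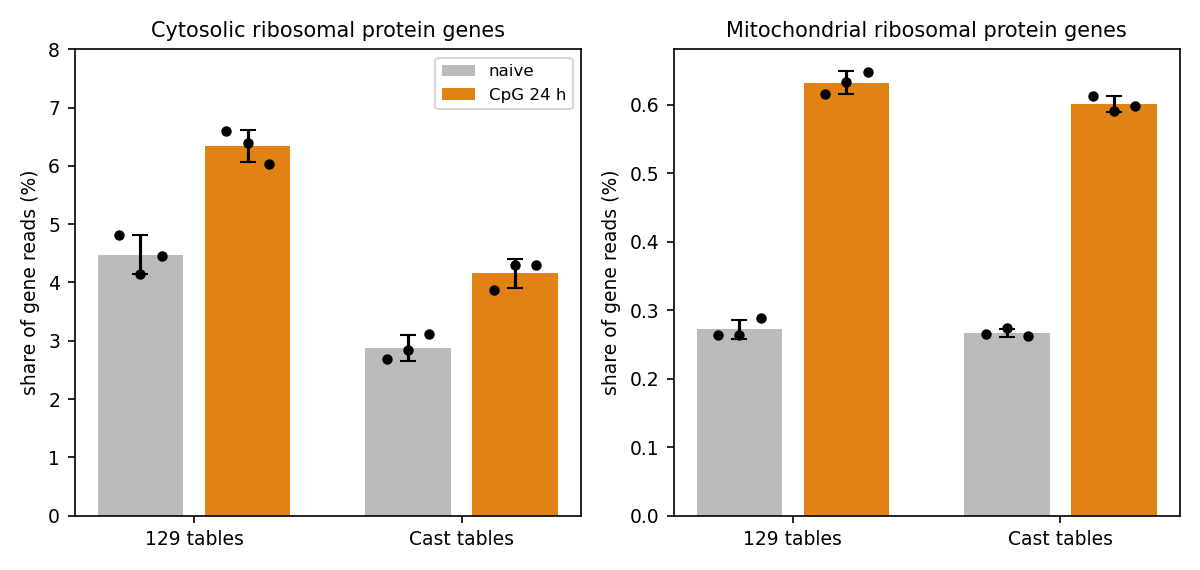
Share of gene reads taken by cytosolic (left) and mitochondrial (right) ribosomal protein genes in the 129 and Cast tables; points are samples, bars are group means and error bars are SD with n = 3. Within each table, all stimulated samples lie above all naive samples in both panels, and the vertical axes differ in range.

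By role, 11 of 30 tested small-subunit members without relatives were higher in the 129 tables and 15 of 29 in the Cast tables, with median log2 changes of 0.32 and 0.38. All genes, as the background for these counts, were higher for 28.2% and 30.7%. Among the large-subunit members without relatives, 22 of 38 and 21 of 31 were higher, with medians of 0.58 and 0.56. Relatives and paralogs gave 3 of 5 higher in the 129 tables and 4 of 6 in the Cast tables. Members with a TOP-like start had 12 of 27 higher in the 129 tables and a median of 0.51, and those without had 13 of 27 and a median of 0.41. In the Cast tables the figures were 15 of 25 and 13 of 24 higher, with medians of 0.48 and 0.38. The difference between members with and without the tract was not tested. Without the 9 members tied to the replicate number, 11 of 22 members with the tract and 13 of 24 without it were higher in the 129 tables, with medians of 0.52 and 0.53. On the Cast allele 12 of 20 and 11 of 21 were higher, with medians of 0.46 and 0.48. The small subunit then had 11 of 26 higher in the 129 and 13 of 25 in the Cast tables (medians 0.43 and 0.38), and the large subunit 21 of 33 and 18 of 26 (medians 0.58 and 0.57).

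By the mean of both tables, the 3 largest rises were in relatives. Rps27l, a paralog of Rps27 known as a p53 target, had 74.4, 68.6 and 82.7 CPM in the naive 129 tables and 409, 407 and 353 after CpG. On the Cast allele its values were 79.1, 73.2 and 87.2 in naive samples and 447, 518 and 449.5 after CpG. The groups lay far apart on both alleles. Its log2 change was 2.37 (SE 0.13, adjusted p = 1.65e-05) in the 129 tables and 2.56 (SE 0.13, adjusted p = 1.05e-06) in the Cast tables.

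Rpl7l1 encodes a paralog of RPL7 that works in ribosome assembly. It rose from 533 ± 25.7 to 1693 ± 193 CPM in the 129 tables and from 114 ± 7.61 to 415 ± 37.7 in the Cast tables (SD, n = 3). These are log2 changes of 1.67 and 1.86, with adjusted p = 3.92e-05 and 2.93e-06. Rps19bp1 rose by 1.80 (SE 0.28) and 1.36 (SE 0.27), with 15.9, 9.56 and 12.0 CPM in naive and 42.1, 34.03 and 54.4 in stimulated 129 tables.

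Among core subunits, the largest rises called on both alleles were those of Rpl35, Rps26 and Rpl7. Rpl35 had 55.8, 66.0 and 91.9 CPM in the naive Cast tables and 164, 149.6 and 151 after CpG, a log2 change of 1.12 (SE 0.18, adjusted p = 0.000496). Its 129 counts were low, with 12, 4 and 13 reads in naive and 38, 50 and 48 in stimulated samples, and a change of 1.86 (SE 0.46, adjusted p = 0.0102). Every stimulated sample was higher than every naive one on either allele.
Rps26, a small-subunit protein near the messenger exit, went from 123, 97.6 and 126 CPM to 267, 309 and 276 in the 129 tables, a log2 change of 1.30 (SE 0.14, adjusted p = 0.000186). In the Cast tables its change was 1.21 (SE 0.25, adjusted p = 0.00203). Rpl7 rose by 0.88 (SE 0.10) in the 129 and 1.26 (SE 0.18) in the Cast tables, with no overlap between the groups. No row with the name of a core subunit was called lower on either allele. The row named Rps27rt, whose identity is uncertain, is described below.

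Rplp0, Rplp1 and Rplp2 form the stalk of the large subunit, which recruits elongation factors. Rplp0 was listed in the 129 tables alone and had 5359, 4832 and 4954 CPM in naive samples and 9328, 10073 and 9807 after CpG. Its log2 change was 0.95 (SE 0.11, adjusted p = 0.000236), and the groups stood well apart. Rplp1 rose by 0.56 and 0.57 in the 129 and Cast tables and Rplp2 by 0.51 and 0.74, all 4 at adjusted p between 0.000987 and 0.0375. The 129 calls of Rplp1 and Rplp2 were lost when single libraries were left out: naive replicate 1 or 2 or stimulated replicate 1 or 3 for Rplp1, and any of the 6 for Rplp2, with changes from 0.42 to 0.60 and from 0.47 to 0.58. Both were also lost under a minimum mean of 50 reads (0.47 and 0.41). The 129 call of Rplp2 was lost with DESeq2 (0.49) and with no count filter (0.53) too.

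Rpl5, which carries the 5S ribosomal RNA into the large subunit together with Rpl11 and can bind the p53 regulator MDM2, rose on both alleles. It had 48.2, 58.6 and 54.2 CPM in naive and 87.4, 91.4 and 90.7 in stimulated 129 tables (log2 change 0.74, SE 0.13, adjusted p = 0.0022). The Cast tables gave 0.84 (SE 0.13, adjusted p = 0.000442). Rpsa, a small-subunit protein also known as the laminin receptor precursor, rose by 0.60 and 0.58, from 3215 ± 137 to 4804 ± 91.6 CPM in the Cast tables (SD, n = 3).
Rps6, the small-subunit protein phosphorylated by the S6 kinases, rose by 0.44 (SE 0.10, adjusted p = 0.00787) in the 129 tables, from 2286, 2074 and 2332 to 3008, 3016 and 3079 CPM. Its Cast change was 0.63 (SE 0.13, adjusted p = 0.00202). Rps27a, which is made as a fusion with ubiquitin, rose by 0.61 in the 129 tables (adjusted p = 0.0208), and the call was lost without stimulated replicate 1 or 2 (0.62 and 0.55). Its Cast change was 0.42 with adjusted p = 0.0592, and 0.020 with a replicate block, a fit that compares samples of the same replicate number.

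Several core members were not called on either allele. Rps29 had a log2 change of -0.11 in the 129 and -0.25 in the Cast tables, and Rps24 of -0.11 and -0.08, with adjusted p from 0.125 to 0.598. Rps15 gave 0.07 and 0.17, with naive and stimulated samples overlapping in both tables. A p that misses the threshold does not show that these genes kept their level. Changes of core subunits in the 129 tables ran from -0.19 for Rpl17 to 1.86 for Rpl35.

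Members listed in the tables of 1 strain could be tested on that allele alone. Rpl10a, Rpl15 and Rpl23a, all in the 129 tables alone, rose by 0.69, 1.13 and 0.58, with adjusted p of 0.00133, 0.00398 and 0.0131. Rpl15 went from 91.6, 63.6 and 109.8 CPM to 225, 157 and 197. Rpl17 gave -0.19 (adjusted p = 0.302), and Rpl13, in the Cast tables alone, gave 0.30 (adjusted p = 0.083, or 0.0478 with a replicate block). Rpl3l, Rpl10l and Rpl39l, paralogs known from muscle and testis, had 0 reads in every library.

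A fall was called for Rps27rt in the Cast tables. It had 124, 164 and 230.2 CPM in naive samples and 68.4, 96.8 and 69.0 after CpG, with no overlap, and its log2 change was -1.14 (SE 0.24, adjusted p = 0.00231). Its identity is uncertain: GENCODE M21 places Rps27rt on chromosome 9 and Rps27 on chromosome 3 (chr3:90212522-90213651, minus strand, GRCm38), and the Cast tables place the row named Rps27rt on chromosome 3. The row named Rpl10 likewise lay on chromosome X in the 129 tables and on chromosome 5 in the Cast tables, with 0 Cast reads, and Rpl18 on chromosomes 7 and 19. Neither of those entered the allele comparison.

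The other lists were genes that share the members' control or handling, and they are described by counts. Rack1, a scaffold on the small subunit that the name rule does not match, was higher in both tables (log2 changes 0.62 and 0.61). Of 15 tested TOP messages that are not ribosomal proteins, 12 were higher and 1 lower in the 129 tables, and 10 were higher and 2 lower in the Cast tables, with medians of 0.89 and 1.14. Of all tested genes, 28.2% were higher and 27% lower in the 129 tables, and 30.7% and 31.5% in the Cast tables. Npm1, a nucleolar chaperone, rose by 2.77 and 2.83, and the elongation factor genes Eef1d and Eef1g by 1.85 and 1.91 and by 1.23 and 1.27. Hnrnpa1, an RNA-binding protein gene, rose by 1.76 and 1.70. The members called lower were Eif3f, an initiation factor gene (-0.40 and -0.54), and in the Cast tables Tpt1 (-0.53).
Dedicated chaperones, which hold single ribosomal proteins before assembly, had 5 of 6 tested genes higher in the 129 tables and 4 of 6 in the Cast tables. All tested genes were higher for 28.2% and 30.7%. The medians of the chaperones were 1.57 and 1.67. Heatr3, which handles RPL5, rose by 2.25 and 2.11, Bccip by 1.59 and 1.64, Ltv1 by 1.56 and 1.32 and Grwd1 by 2.49 and 2.01.
Of the 15 regulators of ribosomal protein genes and messages, 5 were higher in each table, close to the 28.2% and 30.7% of all genes, with 1 lower in the 129 and 2 in the Cast tables. Eif4ebp1, an mTOR target that holds back cap-dependent translation, rose by 2.29 and 2.55, Larp4 by 1.41 and 1.43, and Gabpa, a transcription factor gene, by 0.63 and 0.58. Dyrk1a, a kinase gene, fell by 0.89 and 0.69, and Rptor, a subunit of mTOR complex 1, fell by 0.47 in the Cast tables. Members that are Diamond-Blackfan anaemia genes, an inherited failure of red cell production, were higher for 6 of 16 in the 129 tables and 10 of 16 in the Cast tables, beside the same 28.2% and 30.7%.

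The second question was how the members' reads divided between the alleles. For a gene with equal output and equal mapping from both genomes, the Cast share would be near 50%. Over the 59 autosomal members with enough reads, the median of the mean Cast share was 58.6%, against 52.0% for 7725 other autosomal genes. The members were spread widely: 8 lay above 80% and 5 below 20%, or 22.0% outside that range, against 5.42% of the other genes. Only 18 members, or 30.5%, lay between 40% and 60%, where 69.3% of the other genes were found. Without the 9 members tied to the replicate number the count was 15 of 50. Summed over the autosomal members, the Cast share was nevertheless close to even, standing at 45.2%, 51.6% and 54.5% in naive and 47.1%, 53.1% and 55.8% in stimulated samples. Without the 9 members tied to the replicate number it was 48.9%, 49.5% and 48.5% in naive and 50.3%, 51.1% and 50.5% in stimulated samples, which no longer overlapped. The 9 were picked by the spread of this share between replicate numbers. Leaving them out narrows both groups by construction, so the lack of overlap is no test. All other autosomal matched genes gave 52.2%, 52.7% and 53.5% in naive and 52.2%, 53.1% and 53.5% in stimulated samples.

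In edgeR's test of the allele ratio in naive samples, 24 of the 59 autosomal members were shifted toward Cast and 12 toward 129 at an adjusted p under 0.05, against 15.1% and 9.73% of all autosomal genes. In stimulated samples the counts were 26 and 13, against 15.2% and 9.75%. None of the 9 members tied to the replicate number was among those called, so 50 members without them gave the same counts, and their median share was 55.7%. With the replicate block the counts over all 59 members were 31 and 15 in naive and 35 and 18 in stimulated samples, where the share of all autosomal genes called rose too, to 29.1% and 14.2% and to 29.5% and 14.8%. For this fit, counts without the 9 members are not given. A shift of this kind joins differences in output, in the sequence positions that tell the strains apart, and in how reads of copies were assigned, and these cannot be told apart in allele counts alone.

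**Figure D3:**
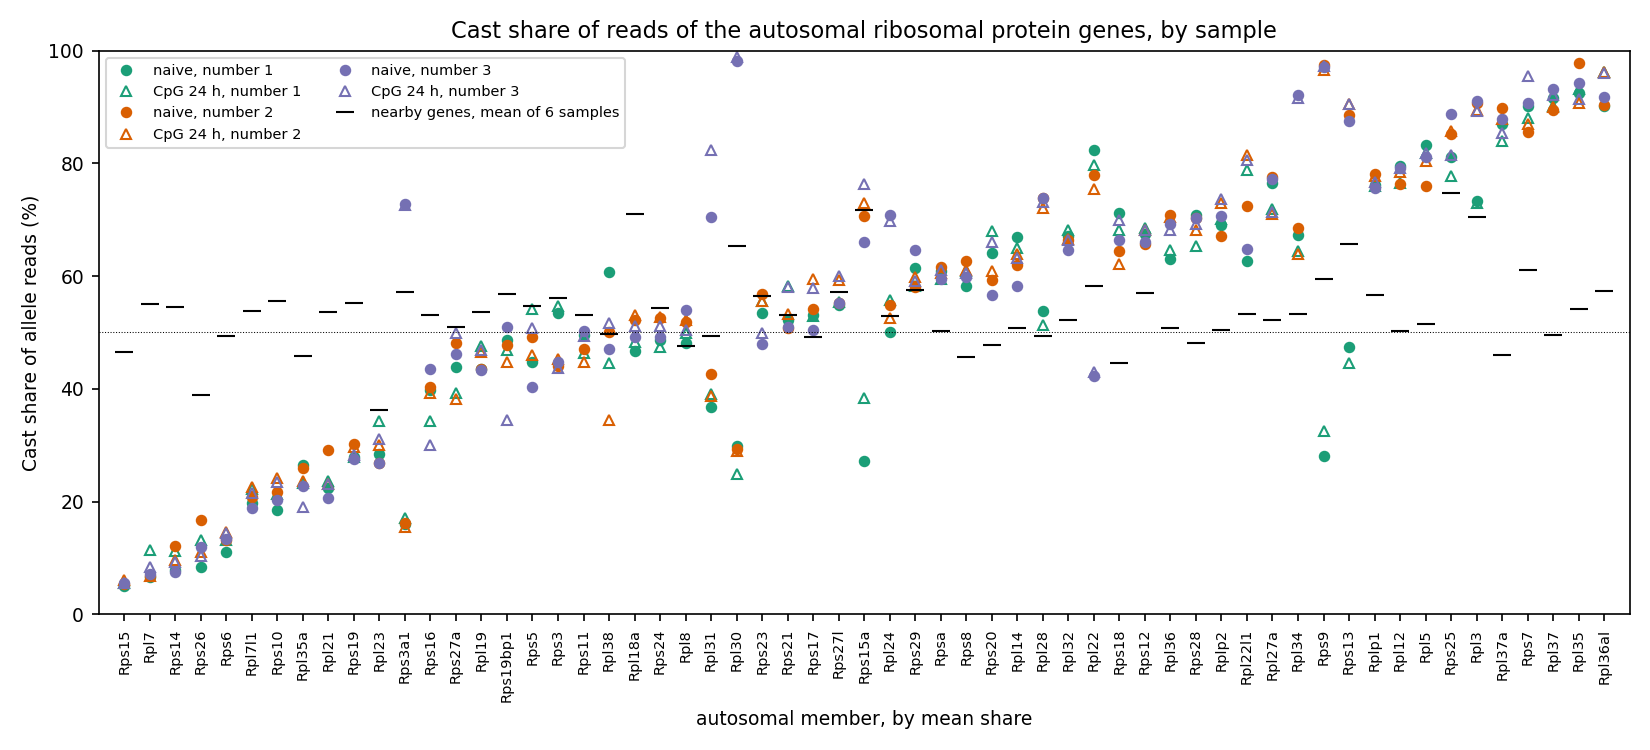
Cast share of allele reads in percent for each of the 59 autosomal members, ordered by mean share; filled circles are naive and open triangles stimulated samples, colours are replicate numbers and black bars are the median of the 6 nearest genes, averaged over samples. Symbols of 1 replicate number mostly lie together, and members such as Rps9, Rpl30 and Rps3a1 have 1 replicate number far from the other two.

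Rps15, a protein of the small-subunit head, had the lowest share, with 5.07% to 6.07% of reads from Cast. Its naive reads were 3351, 2925 and 3311 on the 129 allele and 179, 165 and 197 on the Cast allele. The naive log2 Cast-to-129 ratio was -4.15 (SE 0.06, adjusted p = 1.88e-07). Rpl7, Rps14, Rps26 and Rps6 followed, with means of 7.83%, 9.61%, 11.9% and 13.3%. Their shares did not exceed 16.7% in any sample. The 6 nearest matched genes of these 5 members had mean shares from 38.8% to 55.0%.

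At the other end, Rpl36al had a mean share of 93.5%, Rpl35 of 93.3%, Rpl37 of 91.2%, Rps7 of 89.5% and Rpl37a of 87.0%. Rpl36al is an autosomal relative of X-linked Rpl36a, and the other 4 are core subunits. Rpl35 had a naive log2 ratio of 4.24 (SE 0.30, adjusted p = 7.21e-05) and a stimulated ratio of 3.48 (SE 0.26). Rpl3, Rps25 and Rpl5 made up the rest of those above 80%. Neighbours of the 8 members had mean shares of 45.9% to 74.7%, the highest being those of Rps25.

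The number of close pseudogene copies did not order the members by skew. The 13 members outside 20% to 80% had a median of 4 copies, with a range of 1 to 11, and the 18 members within 40% to 60% had a median of 3, with a range of 0 to 12. Across the 59 members, the distance of the mean share from 50% and the number of copies had a Spearman rho of 0.02, as a description over genes that share the same libraries. Rpl21, with 56 copies, had a mean share of 23.7%, and Rps12, with 21, one of 67.4%. Rps6, with 11 copies including an identical one, and Rpl36al, with 1, both lay far from 50%. Copies were counted in the GRCm38 annotation, while the tables use an annotation for each strain, whose copies were not counted here.

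**Figure D4:**
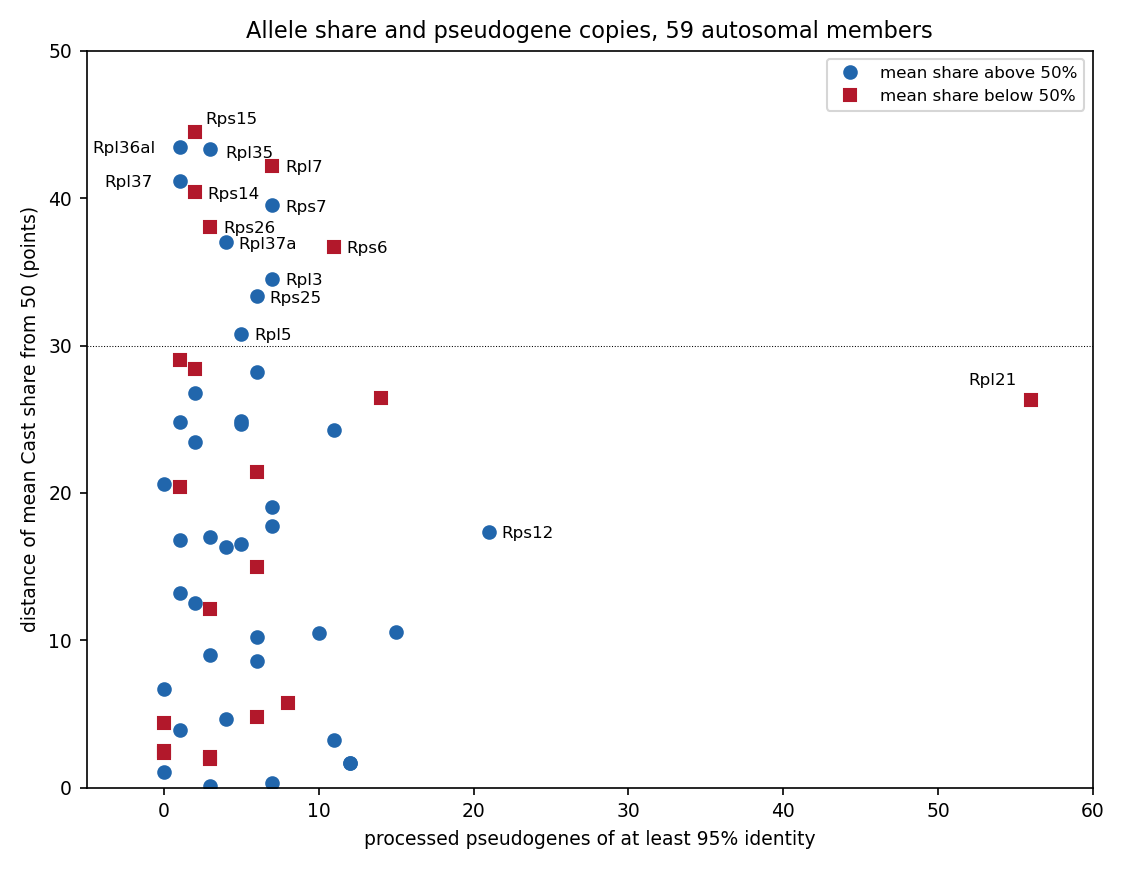
Distance of the mean Cast share from 50% in percentage points (vertical) against the number of processed pseudogenes with at least 95% identity (horizontal) for the 59 autosomal members; colours and shapes give the side of 50%. Members far from 50% have between 1 and 11 copies, and the dotted line marks 30 points.

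The 9 members with shares tied to the replicate number were Rps9, Rpl30, Rps3a1, Rps13, Rps15a, Rpl31, Rpl22, Rpl34 and Rpl28, named after their values were seen. Rps9 had Cast shares of 28.2%, 97.5% and 97.0% in naive replicates 1, 2 and 3 and of 32.5%, 96.6% and 97.3% in the stimulated samples of the same numbers. Its 129 reads were 8414, 222 and 254 in naive and 11574, 507 and 408 in stimulated samples. Rpl30 had 29.9%, 29.3% and 98.2% in naive and 24.9%, 28.9% and 98.9% in stimulated samples. Rps3a1 likewise stood at 72.8% and 72.7% in both samples numbered 3, and between 15.5% and 17.0% in the other 4.

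In some of these the nearby genes moved with the member. The 6 genes nearest to Rpl30 had mean shares of 52.5%, 50.2% and 93.3% for numbers 1, 2 and 3, and those nearest to Rps15a of 50.2%, 82.6% and 82.6%. Neighbours of Rps9 moved less, with 53.7%, 61.8% and 62.9%, and those of Rpl28 stayed between 48.6% and 50.7%. A test of the replicate-by-allele terms, added after the data were seen, called 18 of 62 members, where 14.1% of all matched genes were called. A replicate range above 20 points was seen in 15.3% of members and 12.0% of other autosomal genes.

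In the CpG comparison the median standard error of these members was 0.90 for 129, against 0.15 for the other members, and 0.30 for Cast, against 0.14. Other members reached such errors too, with 0.64 for Rpl3 (129) and 0.42 for Rps16 (Cast). Of the 9, 1 (Rpl28) was called in the 129 and 5 in the Cast tables. The 129 call of Rpl28 was lost with no count filter, under a minimum mean of 50 reads, and without naive replicate 2 or 3 or stimulated replicate 1 or 2, with changes of 0.56 to 0.81. With the replicate block 6 of the 9 were called higher in the 129 tables, where 3507 of all 10581 tested genes were higher. Rps9, a protein that helps to keep decoding accurate, had a 129 log2 change of 0.22 with adjusted p = 0.932 without the block and of 0.43 with adjusted p = 0.0299 with it. Rpl22, which also binds viral and cellular RNAs and has roles in lymphocyte development, gave 0.30 (adjusted p = 0.807) and 0.50 (adjusted p = 0.00693) in the same tables. Its Cast change was 0.38 (adjusted p = 0.0449), a call lost when any of naive replicates 2 and 3 and stimulated replicates 1 and 2 was left out (0.31 to 0.38). It was also lost with DESeq2 and with relative log expression size factors (0.37 in both) and under a minimum mean of 50 reads (0.28). Rpl3, a protein at the peptidyl transferase centre, rose by 0.83 (SE 0.15, adjusted p = 0.000966) in the Cast tables. Its 129 change was 0.91 with adjusted p = 0.277, and 0.99 with adjusted p = 5.2e-06 with the block. The 129 level of Rpl3 was higher in replicate 1 than in replicates 2 and 3 of the same group, in both groups.

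The third question was whether CpG changed the allele ratio. For the autosomal members the share was mostly the same before and after, with a median shift of 1.69 percentage points between group means. The interaction test called 1 of the 62 matched members, Rpl36al, shifted toward Cast, against 0.476% of autosomal genes shifted toward Cast and 0.446% toward 129. With the replicate block it called 9, of which 8 moved toward Cast, against 3.83% and 3.78% of autosomal genes.

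Rpl36al had Cast shares of 90.2%, 90.4% and 91.9% in naive and 96.3%, 96.2% and 96.1% in stimulated samples. Its Cast reads went from 174, 197 and 192 to 464, 582 and 448, while its 129 reads were 19, 21 and 17 and then 18, 23 and 18. The Cast allele rose (log2 change 1.07, SE 0.16, adjusted p = 0.00028) and the 129 allele gave -0.28 (SE 0.30, adjusted p = 0.458). The log2 ratio changed by 1.35 (SE 0.17, adjusted p = 0.0203 in the interaction test). This SE is smaller than the 0.30 of the 129 change alone, so it may understate the counting error. Leaving out any of the 6 samples ended the call, with changes of 1.30 to 1.45 and adjusted p from 0.0675 to 0.105, and the replicate block gave adjusted p = 0.00106. The 129 side rests on about 20 reads per sample, which limits the precision.

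Rpl22l1, the paralog that can replace RPL22, moved in the same way. The share from Cast was 62.6%, 72.5% and 64.8% in naive and 78.9%, 81.5% and 80.6% after CpG, with no overlap. The ratio change was 1.03 (SE 0.19, adjusted p = 0.0704, or 1.42e-06 with the replicate block). Rpl22l1 gave -0.60 in the 129 tables (adjusted p = 0.094) and 0.48 in the Cast tables (adjusted p = 0.052, or 0.0379 with the block).
Rpl27a moved the other way, from 76.5%, 77.5% and 77.2% to 71.9%, 71.1% and 71.3% (ratio change -0.43, SE 0.08, adjusted p = 0.0652, or 0.00242 with the block). It rose on both alleles, by 0.93 in the 129 and 0.50 in the Cast tables. Rpl19, Rps21 and Rpl23 had ratio changes of 0.21, 0.30 and 0.30, with adjusted p of 0.13, 0.262 and 0.298 without the block and 0.0414, 0.011 and 0.0438 with it. With the block, Rpl7, Rps15a and Rps20 were also called toward Cast.

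Of the X-linked members, Rps4x, Rpl36a and Rpl39 could be compared between alleles, and per the labels their Cast copy sits on the inactive X. Rps4x, a small-subunit protein, had 10829, 9382 and 8095 129 reads in naive and 12576, 14002 and 12731 in stimulated samples. On the Cast allele it had 276, 290 and 236 reads and then 303, 465 and 319. Cast reads were thus 2.49%, 3.00% and 2.83% of the total in naive and 2.35%, 3.21% and 2.44% in stimulated samples, and the groups overlapped. Its ratio change was -0.06 (SE 0.14, adjusted p = 0.985), and its level changed by 0.14 (adjusted p = 0.336) and 0.10 (adjusted p = 0.621) in the 129 and Cast tables.

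Rpl36a, a large-subunit protein, had 2, 0 and 1 Cast reads in naive and 12, 7 and 7 in stimulated samples. These were shares of 2.22%, 0% and 1.03% and of 6.82%, 3.50% and 3.87%, and every stimulated share was above every naive one. The 0 was 0 of 98 reads, which allows a share of up to 3.06%, and the 95% Wilson interval of naive replicate 1 ran from 0.61% to 7.74%, which holds all 3 stimulated shares. The group means were 1.08% ± 1.11 and 4.73% ± 1.82 (SD, n = 3, exact permutation p = 0.1, the smallest possible). The ratio change was 2.07 on the log2 scale (SE 0.71, adjusted p = 0.307, or 0.0773 with the block), so a change was not shown at this depth. Intervals and limits cover counting error alone.

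Rpl39, which lines the peptide exit tunnel, had the highest share, at 22.6%, 15.9% and 12.0% in naive and 11.3%, 18.05% and 12.2% in stimulated samples. These rest on 14 to 26 Cast reads per sample. The groups overlapped, and the ratio change was -0.32 (SE 0.38, adjusted p = 0.881). The 6 genes nearest to Rpl39 on the X had a mean share of 4.87%, those nearest to Rps4x 3.56% and those nearest to Rpl36a 1.40%. The median over all other X-linked genes with enough reads was 3.09% ± 0.62 in naive and 3.18% ± 0.67 in stimulated samples (SD, n = 3).

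**Figure D5:**
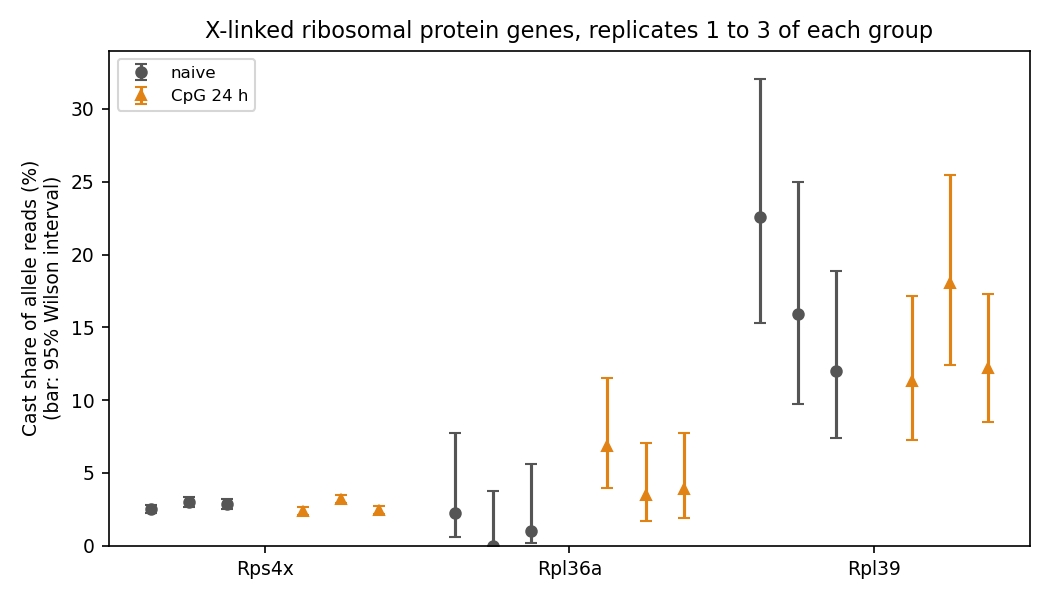
Cast share of allele reads in percent of the 3 X-linked members matched between strains, in naive (circles) and stimulated (triangles) replicates 1 to 3; bars are 95% Wilson intervals. Rps4x lies between 2.35% and 3.21% with narrow intervals, Rpl36a is higher in all stimulated samples, with intervals that overlap for most pairs of samples but not for naive replicate 2 and stimulated replicate 1, and Rpl39 lies between 11.3% and 22.6%.

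Summed over these 3 members, Cast reads made up 2.89% ± 0.22 in naive and 2.83% ± 0.45 in stimulated samples (SD, n = 3, exact permutation p = 0.8). Rps4x gave most of these reads. Without it the share was 9.10% ± 3.01 and 8.88% ± 0.47 (exact permutation p = 1), an alternative added after the data were seen. The median over the 3 members instead gave a stimulated share that was higher by 1.96 points. The authors' deposited table of inactive-to-active X ratios gave 0.0242 and 0.0243 for Rps4x in naive and stimulated cells, 0.00905 and 0.0435 for Rpl36a and 0.163 and 0.136 for Rpl39. In that table the stimulated ratio was higher than the naive one for Rpl36a and lower for Rpl39. That table comes from the same samples and is not independent of the allele shares. The lower stimulated mean share of Rpl39 rests on naive replicate 1, since the shares of numbers 2 and 3 were slightly higher after CpG. The table holds the authors' means without replicate values and gives no error.

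On the active X, Rpl36a rose by 0.57 (SE 0.16, adjusted p = 0.017) in the 129 tables, from 37.9, 40.7 and 48.1 to 58.98, 68.4 and 60.7 CPM. The call was lost without naive replicate 1 or stimulated replicate 2 (0.50 and 0.50). Rpl10, a protein at the core of the large subunit joined late in assembly, went from 181, 131 and 202 to 275, 206 and 289 (log2 change 0.58, SE 0.20, adjusted p = 0.0367). Its call was lost when naive replicate 1 or 2 or stimulated replicate 1 or 3 was left out, with changes of 0.43 to 0.63. It was also lost under a minimum mean of 50 reads (0.49). Rpl39 gave 0.41 (adjusted p = 0.278). Active-X levels of the 4 X-linked members gave changes of 0.14 to 0.58, and the median over all 73 members was 0.52.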

How the data were processed

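Total RNA was extracted with TRIzol and made into libraries with a stranded total RNA kit, per the labels' protocols. The submitters' processing notes name STAR, featureCounts, Subread 2.0.0 and mm10, with no role. The deposited values are read counts per gene in 12 tables, 1 per allele and sample, with gene IDs of strain annotations and closing rows for unassigned reads, per the file headers, which were left out of library sizes. The authors' deposited X table holds mean RPKM values, allele-specific values in a unit the authors call SRPM (not used in a result) and inactive-to-active X ratios. Rows without a gene name held 5.1% to 7.6% of gene reads in the 129 tables and 14.4% to 19.7% in the Cast tables.

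Each strain's tables were fitted alone over all genes with edgeR 4.0.16 (filterByExpr, TMM, robust quasi-likelihood test, Benjamini-Hochberg adjustment, threshold 0.05, R 4.3.3). Allele ratios were fitted for genes matched by name and chromosome and reaching 10 summed allele reads in 3 or more samples, with 1 library size per sample. Shares were compared with two-sided exact permutation tests (scipy 1.17.1). Nearby genes are up to 3 matched genes on each side. Copies were found with BLAST+ 2.17.0. Alternatives were DESeq2 1.42.0, other size factors and filters, members left out of factors, a replicate block and leaving out samples. The main fits and the permutation tests did not pair the samples. The replicate block alone treated replicate numbers as pairing them, since deviations from group means correlated within each number. The r values were 0.57, 0.45 and 0.61 for 129 and 0.24, 0.17 and 0.25 for Cast. The pairing comes from the data, not from a label. Named genes were the X-linked members, relatives, the 6 largest rises on both alleles (no fall qualified), the 5 highest and 5 lowest shares, the 6 smallest interaction p-values, 9 members fixed by role, the first 6 by name found for 1 strain, and up to 4 genes per list. Members and lists were chosen with earlier results of these data known. The scripts were tested on simulated data.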

Additional observations from a re-analysis of the deposited data

Results flagged for a closer look

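Rpl36al differed between alleles in its response to CpG by the test of the difference itself: its log2 Cast-to-129 ratio changed by 1.35 (SE 0.17, adjusted p = 0.0203 in edgeR's interaction test), with the Cast share higher in 3 of 3 stimulated samples than in any naive sample. Leaving out any of the 6 samples ended the call, with adjusted p from 0.0675 to 0.105. The SE of 0.17 is smaller than the 0.30 of the 129 change alone, so it may understate the counting error.

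Pseudogene rows, which the name rule leaves out, also had reads. Rpl36-ps3 had 11, 7 and 10 reads in the naive 129 tables and 19, 32 and 40 in the stimulated ones, with no overlap between the groups. All pseudogene rows together had 14, 12 and 12 and then 20, 35 and 46 reads in the 129 tables, and at most 2 reads per sample in the Cast tables. The stimulated 129 tables were also deeper, with 2811986 to 2928236 gene reads against 1987266 to 2375717, and the parts of depth and of reads from the parent gene were not tested.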

How the results depend on the processing

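The count of members higher after CpG ran from 27 to 49 over the alternatives in the 129 tables and from 33 to 46 in the Cast tables, within 1.5 times the counts of 36 and 40. With the replicate block it was 49 and 44. The genes called higher rose too, from 2987 to 3507 of 10581 tested in the 129 tables and from 3180 to 3412 of 10365 in the Cast tables. Leaving out 1 sample gave 27 to 37 and 35 to 41 higher, and 0 to 1 and 1 lower. A mean of at least 50 reads gave 2 lower in the Cast tables. The rise in the members' share of reads was 1.71 to 2.04 and 1.18 to 1.42 points with a sample left out. With a sample left out, 22 to 24 autosomal members were called toward Cast and 12 toward 129 in naive samples. In stimulated samples 24 to 26 were called toward Cast and 13 toward 129. Of all 9589 to 9805 autosomal genes tested, 1013 to 1462 and 603 to 907 were called in naive samples. In stimulated samples these were 1063 to 1428 and 646 to 907. With the X-linked members, 37 to 39 members were called in naive and 40 to 42 in stimulated samples. The allele ratio change was called for 9 members with the replicate block, 2 with DESeq2 and 0 without any 1 sample, where 5 to 11 members had an unadjusted p under 0.05. The change of the X-linked share, -0.06 points, turned positive as a median over members (1.96) and ran from -0.324 to 0.0918 with a sample left out. The autosomal share change, 1.56 points, ran from -1.06 to 4.02. The cause of these reversals was not tested.

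Of 95 called single-gene results (uncalled ones are not counted here), 77 kept their direction and side of the threshold under every alternative run, and 0 reversed. In 81 of 1084 alternatives a call was lost, 59 of them with a sample left out, and the replicate block lost 0. The block added calls for 13 members in the 129 and 4 in the Cast tables, where calls over all genes rose too. Allele reads, 14 to 26 for Rpl39 and 0 to 12 for Rpl36a on the Cast X, limit the precision of those shares.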
